A study of Homo sapiens with 4 samples.

Results

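Apolipoproteins are the proteins that coat lipoprotein particles, and MTTP (microsomal triglyceride transfer protein) loads the first lipid onto them. Of the 60234 genes in the table of reads, 10 were followed here: APOA1, APOA2, APOA4, APOB, APOC1, APOC3, APOE, APOH, APOM and MTTP. They were chosen by name as a family, and the family was selected on the RA-minus-control difference of GFP-negative cells, in which APOA4 stood near the top. That difference is therefore given below as a description. All 10 genes were found in the table by their Ensembl identifiers.

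The RNA came from 4 sorted populations of NKX2.5:GFP hESCs, a human embryonic stem cell reporter line in which GFP reports the cardiac transcription factor NKX2-5. Cultures were differentiated toward the cardiac lineage as spin embryoid bodies with a cytokine cocktail, and received either 1 µM retinoic acid (RA) or its solvent DMSO (CTR) from day 4 to day 7. Cells were sorted at day 31 by the series' description, which the study's methods state slightly differently, into GFP-positive and GFP-negative fractions, which gave RA GFP-negative, CTR GFP-negative, RA GFP-positive and CTR GFP-positive cells with 1 library each. All 4 libraries share the same line and the same differentiation protocol, and the GFP-negative fraction is whatever the sort left, with no positive marker of its own.

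With 1 library per condition the comparisons within a fraction or a treatment have no replicate, and no p-value is given. An additive fit of both factors over the 4 libraries was not made. Levels are read counts scaled to a common library total (CPM) after trimmed-mean (TMM) scaling, with exact Poisson 95% intervals, and ratios of CPM carry exact (Clopper-Pearson) 95% intervals. Amplified reads are not independent molecules, so that these intervals cover counting error only, and the spread between cultures is unknown. Where a library held no read, "at least" folds put it at 3 reads, and the exact interval of the ratio, which also covers the counting error of the other library, starts lower. Differences are given as log2(CPM + 1), which understates the change of genes with low counts. The libraries held 4371101 reads in CTR GFP-negative cells and between 26222787 and 28643091 reads in the others, and 3 reads corresponded to 0.639 CPM in CTR GFP-negative cells and to between 0.105 and 0.117 CPM elsewhere. The summed CPM of 8 cardiomyocyte markers was 16016.5 and 17405 in RA and CTR GFP-positive cells, against 462 and 821 in the GFP-negative cells. Genes expressed in stroma summed to 61526, 32158 and 15080 CPM in RA GFP-negative, CTR GFP-negative and RA GFP-positive cells, against 3907 CPM in CTR GFP-positive cells. In such bulk samples, fewer cells of a type and less RNA per cell cannot be told apart.

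Lipoproteins carry cholesterol and triglyceride through plasma. Liver, intestine and yolk sac endoderm build the particles around APOB, which MTTP lipidates in the endoplasmic reticulum, whereas APOA1 and APOA2 form high-density lipoprotein and the small APOC proteins set how fast particles are hydrolysed and cleared. APOE, the ligand of the LDL receptor family, is also made by macrophages, glia and many other cells, so that it does not by itself mark a lipoprotein-secreting cell. The APOA4, APOC3 and APOA1 genes lie side by side on chromosome 11, and APOE and APOC1 lie together on chromosome 19.

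APOE outweighed the other members in every library. The 10 genes summed to 2022 CPM in RA GFP-negative cells, 1228 CPM in CTR GFP-negative cells, 456 CPM in RA GFP-positive cells and 368 CPM in CTR GFP-positive cells. Of these sums APOE made up 84.0%, 98.4%, 92.8% and 94.6%. Without APOE the sums were 323, 19.8, 32.7 and 19.7 CPM, and the sum in RA GFP-negative cells was mostly that of APOA1, APOA4 and APOB. APOC1 and APOM were spread more evenly, with 39.5% and 39.7% of their CPM over the 4 libraries in RA GFP-negative cells. There, every member had at least 4 reads, and 5 of the 10 reached 10 CPM. CTR GFP-negative cells had at least 4 reads of 4 members and no read of 4 others (APOA2, APOH, APOM and MTTP), and CTR GFP-positive cells had no read of APOA2 or APOH.

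**Figure D1:**
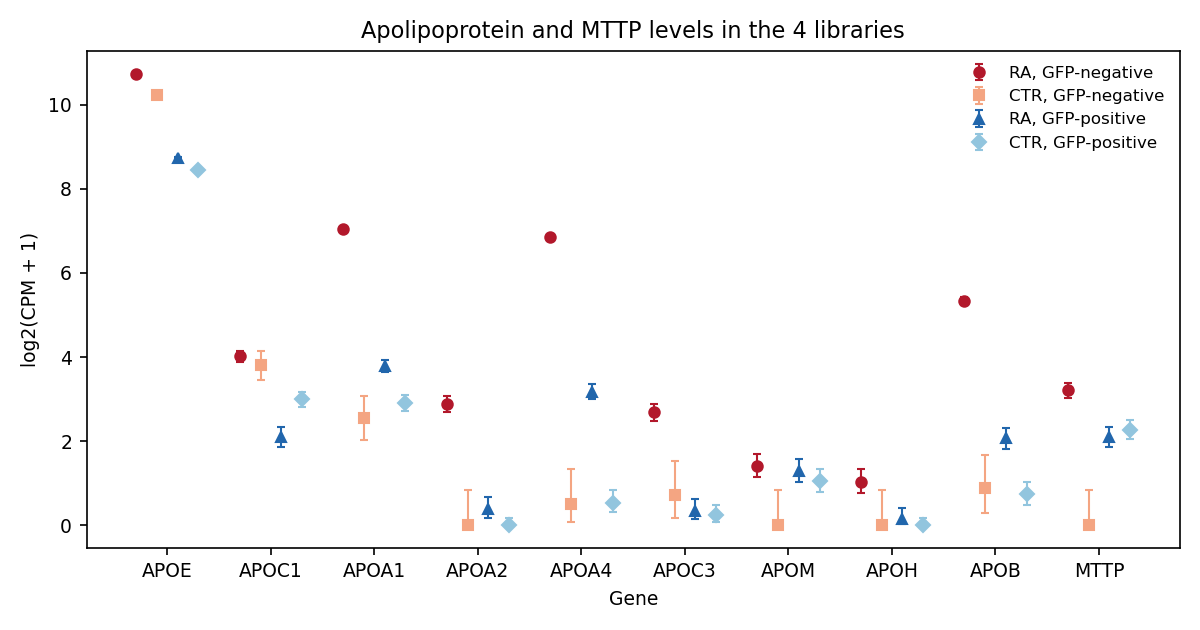
Level of each of the 10 genes (x axis) as log2(CPM + 1) (y axis) in the 4 libraries, with bars for exact Poisson 95% intervals. APOE lies above all other members in every library (348 to 1699 CPM), and APOA1, APOA4 and APOB are far higher in RA GFP-negative cells (131, 115 and 39.3 CPM) than in the other 3 libraries.

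Per kilobase of exon, which allows genes of different length to be compared, the order in RA GFP-negative cells was APOE (789 CPM per kb), APOA1 (119.9), APOA4 (78.1), APOC1 (12.9), APOA2 (6.72), APOC3 (6.37), APOB (2.65), MTTP (1.61), APOM (1.35) and APOH (0.790). The neighbours APOA2 and APOC3, MTTP and APOM, and APOM and APOH had intervals that overlapped once scaled to length. In CTR GFP-negative cells the order was APOE (561 CPM per kb), APOC1 (11.0), APOA1 (4.47), APOC3 (0.751), APOA4 (0.290) and APOB (0.0574), with the last 3 resting on 4 reads or fewer each. In RA GFP-positive cells APOE (197 CPM per kb) was followed by APOA1 (11.7), APOA4 (5.47), APOC1 (2.79) and APOM (1.18). CTR GFP-positive cells had APOE at 162, APOA1 at 5.95, APOC1 at 5.90, APOM at 0.875 and MTTP at 0.749 CPM per kb, and there APOA1 could not be separated from APOC1, nor APOM from MTTP. APOE was 6.58 times APOA1 per kb in RA GFP-negative cells and 125.5 times APOA1 in CTR GFP-negative cells, the lowest and the highest of the 4 libraries.

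The core protein of chylomicrons and very-low-density lipoprotein, APOB (ENSG00000084674, GRCh37 chr2:21224301-21266945, minus strand), had 1008 reads in RA GFP-negative cells, 4 in CTR GFP-negative cells, 85 in RA GFP-positive cells and 19 in CTR GFP-positive cells. These were 39.3 CPM (36.9 to 41.8), 0.852 CPM (0.232 to 2.18), 3.18 CPM (2.54 to 3.93) and 0.663 CPM (0.399 to 1.04). RA GFP-negative cells stood above the other libraries, RA GFP-positive cells came next, and the intervals of both CTR libraries overlapped. RA was 46.1 times CTR (18.0 to 169.6) in GFP-negative cells and 4.79 times CTR (2.89 to 8.35) in GFP-positive cells.

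MTTP (ENSG00000138823, chr4:100485238-100545154, plus strand) had 212 reads in RA GFP-negative cells, 0 in CTR GFP-negative cells, 87 in RA GFP-positive cells and 110 in CTR GFP-positive cells. Its levels were 8.26 CPM (7.19 to 9.45), 0 CPM, 3.25 CPM (2.61 to 4.01) and 3.84 CPM (3.15 to 4.63). The transfer protein thus had reads in both GFP-positive fractions, where its intervals overlapped, and RA was 0.847 times CTR (0.632 to 1.13). In GFP-negative cells RA was at least 12.9-fold higher than CTR, taking 3 reads as the limit for a library at 0 (exact interval from 10.4).

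APOB and MTTP act in the same step, and they differed in proportion between the fractions. RA GFP-negative cells had 4.75 APOB reads per MTTP read (4.10 to 5.54), RA GFP-positive cells 0.977 and CTR GFP-positive cells 0.173 (0.100 to 0.283). Per kilobase, APOB was 164% of MTTP in RA GFP-negative cells, 33.8% in RA GFP-positive cells and 5.97% in CTR GFP-positive cells. In CTR GFP-negative cells MTTP had no read and no proportion was formed.

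APOA1, the main protein of high-density lipoprotein (ENSG00000118137, chr11:116706467-116708338, minus strand), had 3371 reads in RA GFP-negative cells, 23 in CTR GFP-negative cells, 342 in RA GFP-positive cells and 187 in CTR GFP-positive cells. These gave 131 CPM (127 to 136), 4.90 CPM (3.10 to 7.35), 12.8 CPM (11.5 to 14.2) and 6.53 CPM (5.62 to 7.53). It was thus present above the 3-read limit in every library, and the CTR libraries could not be separated from each other. RA was 26.8 times CTR (17.8 to 42.4) in GFP-negative cells and 1.96 times CTR (1.63 to 2.35) in GFP-positive cells. APOA1 shares 11.2% of its exon bases with the antisense gene APOA1-AS, and reads confined to those bases were not assigned by counting without strand, so that its level is uncertain.

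APOA2 (ENSG00000158874, chr1:161192082-161193421, minus strand), the other structural protein of high-density lipoprotein, had 163, 0, 8 and 0 reads in RA GFP-negative, CTR GFP-negative, RA GFP-positive and CTR GFP-positive cells. Its level was 6.35 CPM (5.41 to 7.41) in RA GFP-negative cells and 0.299 CPM in RA GFP-positive cells, and it was not detected in either CTR library. Taking 3 reads as the limit, RA was at least 9.94-fold higher than CTR in GFP-negative cells (exact interval from 7.99) and at least 2.86-fold higher in GFP-positive cells (from 1.83). Another protein-coding gene, AL590714.1, overlaps 22.8% of its exon bases.

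APOA4 (ENSG00000110244, chr11:116691416-116694020, minus strand) is secreted with chylomicrons, mainly by enterocytes in adults. It had 2947 reads in RA GFP-negative cells, 2 in CTR GFP-negative cells, 215 in RA GFP-positive cells and 13 in CTR GFP-positive cells, or 115 CPM (111 to 119), 0.426 CPM (0.0516 to 1.54), 8.04 CPM (7.00 to 9.19) and 0.454 CPM (0.242 to 0.776). Both RA libraries stood above both CTR libraries, whose intervals overlapped. The log2 difference in GFP-negative cells was 6.34, which ranked 2 of the 11606 genes that reached 10 CPM there, while APOA1 (4.49) and APOB (4.44) ranked 14 and 15. The ratio was 269.6, with an interval of 74.6 to 2228 because CTR rested on 2 reads. In GFP-positive cells RA was 17.7 times CTR (10.1 to 33.8). A long noncoding gene on the other strand overlaps 43.2% of the exon bases of APOA4 and was not counted separately, so that without strand any reads of it there would be counted as APOA4.

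APOC3 (ENSG00000110245, chr11:116700422-116703788, plus strand), an inhibitor of lipoprotein lipase, had 139 reads in RA GFP-negative cells, 3 in CTR GFP-negative cells, 7 in RA GFP-positive cells and 5 in CTR GFP-positive cells. RA GFP-negative cells at 5.42 CPM (4.55 to 6.40) were the high library, and the others lay at 0.639, 0.262 and 0.174 CPM. RA was 8.48 times CTR (2.84 to 41.6) in GFP-negative cells, whereas 1.50 times CTR (0.410 to 5.99) in GFP-positive cells was not a detectable difference at this depth.

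APOC1 (ENSG00000130208, chr19:45417504-45422606, plus strand), which slows the uptake of remnant particles, had 389, 61, 88 and 199 reads in RA GFP-negative, CTR GFP-negative, RA GFP-positive and CTR GFP-positive cells, or 15.2 CPM (13.7 to 16.7), 13.0 CPM (9.94 to 16.7), 3.29 CPM (2.64 to 4.05) and 6.94 CPM (6.01 to 7.98). The GFP-negative libraries overlapped in their intervals (ratio 1.17, 0.889 to 1.55). In GFP-positive cells RA was 0.474 times CTR (0.364 to 0.612), and APOC1 was the only member that was lower with RA by an interval that excluded equal CPM. A near copy of this gene, APOC1P1, lies next to it, and reads that align to both were not counted, while an overlapping gene on the same strand that was not counted separately covers 40.7% of its exon bases.

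APOE (ENSG00000130203, chr19:45409048-45412650, plus strand) had 43594, 5674, 11332 and 9972 reads in the same order, or 1699 CPM (1683 to 1715), 1208 CPM (1177 to 1240), 424 CPM (416 to 432) and 348 CPM (341 to 355). All 4 intervals were separate, and the order was RA GFP-negative, CTR GFP-negative, RA GFP-positive, CTR GFP-positive. RA was 1.41 times CTR (1.37 to 1.45) in GFP-negative cells and 1.22 times CTR (1.19 to 1.25) in GFP-positive cells. By reads APOE ranked 37 and 45 among all genes of the RA and CTR GFP-negative libraries, and 231 and 314 in the GFP-positive ones. APOE and APOC1, which are neighbours, stood at 112 and 93.0 APOE reads per APOC1 read in RA and CTR GFP-negative cells, 129 in RA GFP-positive cells and 50.1 in CTR GFP-positive cells.

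The remaining members were low. APOM (ENSG00000204444, chr6:31620193-31625987, plus strand), the carrier of sphingosine-1-phosphate on high-density lipoprotein, had 43, 0, 39 and 31 reads in RA GFP-negative, CTR GFP-negative, RA GFP-positive and CTR GFP-positive cells. At 1.68 CPM (1.21 to 2.26), 1.46 CPM (1.04 to 1.99) and 1.08 CPM (0.735 to 1.54) in the libraries with reads, its intervals overlapped, and 11.0% of its exon bases are shared with BAG6 on the other strand. APOH (ENSG00000091583, chr17:64208151-64252643, minus strand), a phospholipid-binding plasma protein made in liver, had 27, 0, 3 and 0 reads. Its 1.05 CPM (0.693 to 1.53) in RA GFP-negative cells was at least 1.65-fold higher than in CTR GFP-negative cells (exact interval from 1.25), and no fold was formed in GFP-positive cells, where both libraries were at or under 3 reads.

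Over the members, the log2 difference between RA and CTR GFP-negative cells lay above 0 for 10 of 10 genes, with a median of 2.42 (4.44 over the 5 at 10 CPM) beside 0.08 over the genes that reached 10 CPM in either of them. Among 5 members with at least 10 CPM, APOA1, APOA4 and APOB were at least 2-fold higher with RA, none was at least 2-fold lower, and APOC1 and APOE were within 2-fold. APOA1, APOA4 and APOB passed the limit through RA GFP-negative cells alone and could be called only as higher. Over all genes 4.95% were at least 2-fold higher and 3.18% at least 2-fold lower. With a limit of 1 CPM, 8 of 10 members were called at least 2-fold higher by log2(CPM + 1), against 8.69% of all genes. APOH (1.04) is among them because CTR GFP-negative cells were taken at 0 CPM, and its bound of 1.65-fold falls short of 2-fold. The family was selected on this contrast, so that these counts describe the selection. With libraries at 0 set to the 3-read limit and no pseudocount, the median over the members was 3.20 on the log2 scale.

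In GFP-positive cells, a comparison that the selection did not use, the differences were smaller. APOA4 (log2 difference 2.64), APOB (1.33), APOA1 (0.87), APOA2 (0.38), APOE (0.28), APOM (0.24), APOC3 (0.10) and APOH (0.15) lay above 0, while MTTP (-0.19) and APOC1 (-0.89) lay below. The interval of the ratio excluded equal CPM for 6 of the 10 members, namely APOA1, APOA2, APOA4, APOB and APOE, which were higher with RA, and APOC1, which was lower. Over all genes with a read in either library the interval excluded equal CPM for 42.1%, since at this depth small differences pass it. Only APOA1 and APOE had at least 10 CPM in either GFP-positive library, and neither was past 2-fold in either direction, where 4.14% of all genes were higher and 1.67% lower. With a limit of 1 CPM, APOA4 and APOB were at least 2-fold higher, against 5.09% of all genes. Both passed that limit through RA GFP-positive cells alone and could be called only as higher. No member was called lower, although the ratio of APOC1 was 0.474, since the pseudocount of 1 CPM narrows its difference to -0.89. The median was 0.26 over the 10 members with no limit and 0.58 over the 2 at 10 CPM, beside 0.02 over all genes at 10 CPM.

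**Figure D2:**
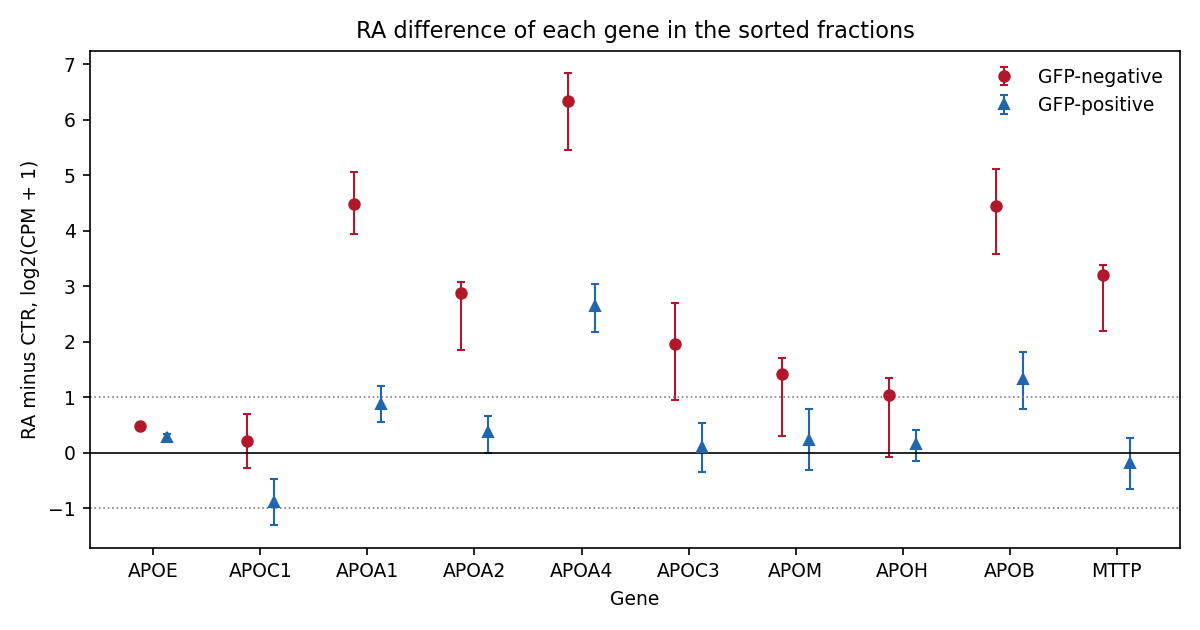
RA minus CTR difference in log2(CPM + 1) of the 10 genes in GFP-negative and GFP-positive cells, with bars between the extremes that the Poisson 95% intervals of both libraries allow, a line at 0 and dotted lines at 2-fold. APOA4 reaches 6.34 in GFP-negative and 2.64 in GFP-positive cells, while APOE lies at 0.49 and 0.28 and APOC1 at 0.21 and -0.89.

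Between the sorted fractions of RA cells, GFP-positive cells had fewer CPM of every member than the GFP-negative cells did. The level in GFP-positive cells was 4.71% of that in GFP-negative cells for APOA2, 4.83% for APOC3, 7.00% for APOA4, 8.09% for APOB and 9.73% for APOA1 (8.68 to 10.9). For APOH it was 10.7%, for APOC1 21.7%, for APOE 24.9%, for MTTP 39.4% (30.3 to 50.8) and for APOM 87.0% (54.9 to 137), and APOM was the only member whose interval included equal CPM, against 52.7% of all genes with a read whose interval excluded it. Thus 5 of the 5 members with at least 10 CPM (APOA1, APOA4, APOB, APOC1 and APOE) were at least 2-fold lower in GFP-positive cells, against 12.4% of all genes, but APOA4, APOB and APOC1 passed the limit through RA GFP-negative cells alone and could be called only as lower. With a limit of 1 CPM, 8 of the 10 were called lower by log2(CPM + 1), against 14.1% of all genes. APOH, at 10.7%, was not called, since the pseudocount of 1 CPM narrows its difference to -0.88. The RA GFP-negative library that enters here is the one on which the family was selected, and its high levels are a description in this comparison too.

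The same percentage was formed for the genes of 3 marker lists with at least 10 CPM in RA GFP-negative cells. It ranged from 1.37% to 14.6% over 10 of 14 liver and yolk sac genes (median 5.07%), from 1.72% to 10.7% over 5 of 12 intestinal genes (median 5.34%) and from 6.74% to 44.01% over 7 epithelial genes (median 23.7%). For AFP, the main serum protein of fetal liver and yolk sac, it was 4.86% (4.47 to 5.28). APOA1, APOA4, APOB, APOA2, APOC3 and APOH lay within the ranges of both the liver and yolk sac and the intestinal genes, and APOA1, APOA4, APOB and APOH also within that of the epithelial genes. For APOH this rested on 3 reads in RA GFP-positive cells, and its interval (2.07% to 34.6%) reached past the upper ends of the liver and yolk sac and the intestinal ranges. APOC1, APOE and MTTP lay within the epithelial range only, and APOM above all 3. These marker genes were kept for their level in RA GFP-negative cells, the denominator of the percentage, so that low values follow in part from that limit and the shared ranges are a description. The part of GFP-negative cells, or of their RNA, in the levels of the GFP-positive library was not tested. For APOA1 the number of reads per AFP read was 0.283 in RA GFP-negative cells, 1.64 (0.810 to 3.45) in CTR GFP-negative cells, 0.566 (0.494 to 0.648) in RA GFP-positive cells and 23.4 (11.6 to 54.9) in CTR GFP-positive cells, where AFP had 8 reads.

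**Figure D3:**
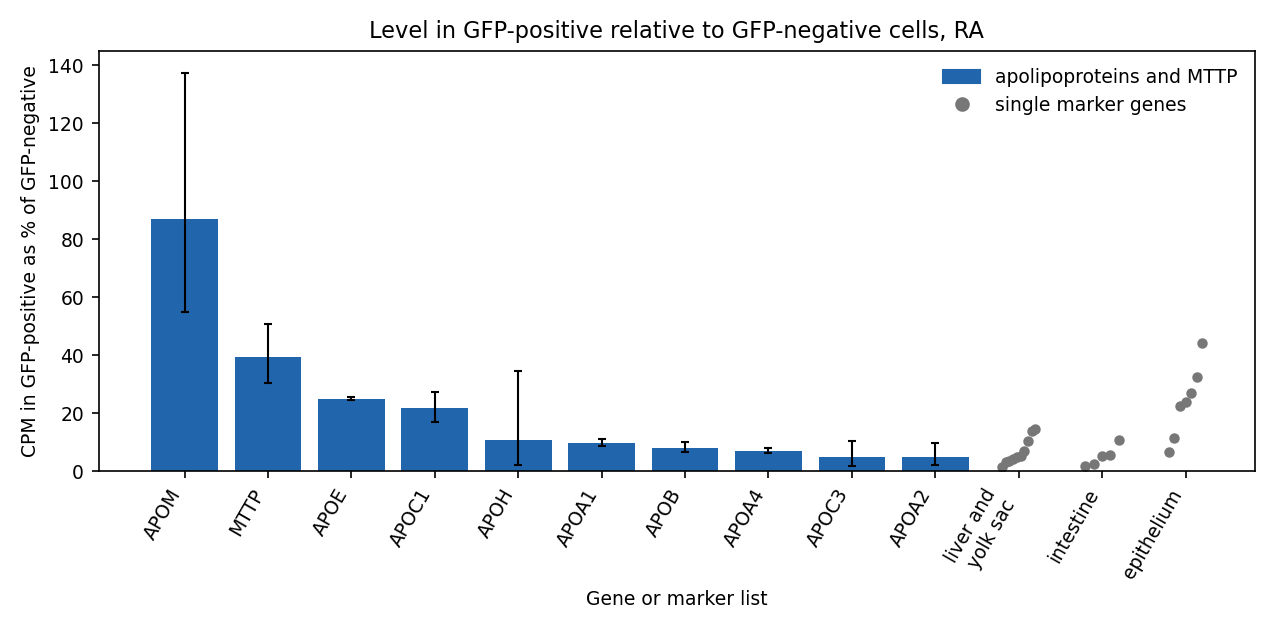
CPM in RA GFP-positive cells as a percentage of that in RA GFP-negative cells (y axis, from 0) for the 10 genes (blue bars, with 95% counting intervals) and for single genes of 3 marker lists with at least 10 CPM in RA GFP-negative cells (grey points). APOA2, APOC3, APOA4, APOB and APOA1 (4.71% to 9.73%) lie at the height of the liver and yolk sac and the intestinal genes, MTTP (39.4%) at that of the upper epithelial genes, and APOM (87.0%) above all points.

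In CTR cells the fractions were arranged differently. The CTR GFP-negative library is the other side of the contrast on which the family was selected, so that low levels in it are a description. APOE was 0.288 times (0.279 to 0.298) and APOC1 0.535 times (0.399 to 0.724) as high in the GFP-positive fraction as in the other. APOA1 (1.33, 0.862 to 2.15), APOA4 (1.07, 0.241 to 9.72), APOB (0.778, 0.259 to 3.15) and APOC3 (0.273, 0.0531 to 1.76) had intervals that included equal CPM at this depth. MTTP was at least 6.01-fold higher (exact interval from 4.80) and APOM at least 1.69-fold higher (from 1.30) in GFP-positive cells, as CTR GFP-negative cells held no read of either. Of the 2 members with at least 10 CPM, 1 (APOE) was at least 2-fold lower in GFP-positive cells, against 13.3% of all genes. With a limit of 1 CPM, MTTP and APOM were called at least 2-fold higher there by log2(CPM + 1), against 14.1% of all genes. Both passed the limit through GFP-positive cells alone and could be called only as higher. For APOM the call took CTR GFP-negative cells at 0 CPM, and its bound of 1.69-fold falls short of 2-fold.

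The summed levels of other marker lists are given beside these values. Liver and yolk sac markers (14 genes) summed to 1013 CPM in RA GFP-negative cells, 121 CPM in CTR GFP-negative cells, 57.4 CPM in RA GFP-positive cells and 14.4 CPM in CTR GFP-positive cells. Intestinal markers (12 genes) summed to 153, 21.7, 6.84 and 2.79 CPM in the same order, with FABP2 at 0 in every library. The liver and yolk sac sum was mostly AFP and SERPINA1 in RA GFP-negative cells (464.6 and 286 CPM) and mostly TTR in CTR GFP-negative cells (73.0 CPM), and TTR (11.7 CPM) and TDO2 (16.8 against 24.5 CPM) were lower with RA, all 4 named after their values were seen. Both sums were highest in the library in which APOA1, APOA4 and APOB were highest, and their part in the apolipoprotein levels was not tested. Epithelial markers (7 genes) summed to 2711, 1612, 767 and 778 CPM. The macrophage list, which bears on APOE and APOC1, summed to 11.0, 9.37, 2.54 and 1.92 CPM over 10 genes, with C1QA and C1QC at 0 in all 4 libraries. Markers of glia and eye pigment epithelium (10 genes), other cells that can make APOE, summed to 100.5, 680, 50.0 and 93.1 CPM and were highest in CTR GFP-negative cells, where the pigment cell genes PMEL (444 CPM) and DCT (109 CPM) and the glutamate transporter SLC1A3 (91.6 CPM) made up most of the sum and GFAP and RPE65 had no read. These genes were named after their values were seen.

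The members also differ in the sequence upstream of their start. RefSeq promoters (table of build GRCh38.p14) were found for 7 of the 10 members, and APOA1, APOB and APOC3 had no entry. The 250 bases before the start were matched exactly, and once each, to GRCh37. Both strands were searched for short motifs, of which reported here are the TATA box letters TATAAA, the CCAAT box, the nuclear receptor letters AGGTCA, the HNF4 letters CAAAGTCCA and the forkhead letters TGTTTAC, none of which contains another. Of 35116 promoters in the table, 10.7% held TATAAA, 32.0% CCAAT, 12.1% AGGTCA, 0.325% CAAAGTCCA and 2.98% TGTTTAC. Shown 5′ to 3′ are APOA4, which had the widest difference with RA, APOA2 and MTTP, which had reads in RA but not in CTR GFP-negative cells, and APOE, which had many in every library. Capitals mark the matches, and a match on the reverse strand appears as its complement read backwards.
APOA4, chr11:116694021-116694270, minus strand: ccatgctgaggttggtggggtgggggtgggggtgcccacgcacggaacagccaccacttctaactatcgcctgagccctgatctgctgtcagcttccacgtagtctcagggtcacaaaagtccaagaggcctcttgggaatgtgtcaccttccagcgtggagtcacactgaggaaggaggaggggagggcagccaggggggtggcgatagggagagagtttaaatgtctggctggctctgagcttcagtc
APOA2, chr1:161193419-161193668, minus strand: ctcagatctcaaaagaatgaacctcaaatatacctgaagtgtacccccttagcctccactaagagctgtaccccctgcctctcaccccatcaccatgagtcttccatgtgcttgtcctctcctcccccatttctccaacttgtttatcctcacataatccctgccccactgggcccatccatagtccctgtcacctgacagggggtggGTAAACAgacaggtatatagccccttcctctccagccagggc
MTTP, chr4:100495731-100495980, plus strand: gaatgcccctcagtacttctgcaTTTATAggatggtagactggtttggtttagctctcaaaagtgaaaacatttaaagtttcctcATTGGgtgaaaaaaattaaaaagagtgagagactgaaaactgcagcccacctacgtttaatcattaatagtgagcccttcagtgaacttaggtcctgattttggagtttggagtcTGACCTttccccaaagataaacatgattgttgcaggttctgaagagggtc
APOE, chr19:45408803-45409052, plus strand: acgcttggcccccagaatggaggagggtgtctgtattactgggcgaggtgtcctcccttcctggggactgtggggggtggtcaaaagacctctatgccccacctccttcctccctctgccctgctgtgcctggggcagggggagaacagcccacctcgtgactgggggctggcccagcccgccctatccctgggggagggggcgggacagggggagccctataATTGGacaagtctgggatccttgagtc
APOA2 held the forkhead letters on the reverse strand from -42 to -36, counted from the start. RefSeq gives 2 starts for MTTP, and in the window of the downstream one, shown here, AGGTCA matched the reverse strand at -50 to -45, beside CCAAT at -165 to -161 and TATAAA at -227 to -222. The window of the upstream start (chr4:100485037-100485286) held none of these letters. Of 3 starts of APOE, the most upstream one, shown here, held CCAAT in reverse at -27 to -23, the next held none of the letters and the last held CCAAT in reverse at -202 to -198. None of the searched letters was found in the window of APOA4. A match is a description of the letters and no evidence of binding.

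The neighbours of the apolipoprotein genes on chromosome 11 with at least 10 CPM did not share the difference with RA. Within 100 kb of the APOA4, APOC3 and APOA1 genes, BUD13 was at 11.0 CPM in RA and 12.8 CPM in CTR GFP-negative cells, ZPR1 at 27.9 and 36.6 CPM, and SIK3 at 26.6 and 24.9 CPM. Their log2 differences were -0.20, -0.38 and 0.09, all within 2-fold. Low noncoding neighbours went both ways, with 18 reads in RA and 0 in CTR for BUD13-DT and 0 in RA and 6 in CTR for APOA1-AS. APOA5, an activator of triglyceride hydrolysis that lies in the same cluster, had 0 reads in all 4 libraries. On chromosome 19, APOC2, the cofactor of lipoprotein lipase, had 10, 0, 1 and 0 reads in RA GFP-negative, CTR GFP-negative, RA GFP-positive and CTR GFP-positive cells, and APOC4 had none. These neighbours were named after their values were seen.

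Genes with the most similar distribution over the 4 libraries were sought among 12407 genes with at least 10 CPM in any library, by the distance between shares of the 4 CPM values (0 for the same shares, 1 for none in common). RA GFP-negative cells held 92.8% of the summed CPM of APOA4, and ADH1B (distance 0.00607), POU5F1 (0.00852), MEP1A (0.0160), CBLIF (0.0179) and TFF1 (0.0183) were closest to it. MEP1A is an intestinal brush border protease, CBLIF and TFF1 are secreted by gastric cells, and POU5F1 has near copies elsewhere, which makes its count uncertain. APOB, with 89.3% in RA GFP-negative cells, was closest to AMBP (0.0140), KRT4 (0.0180), SLC44A4 (0.0294), SPINK1 (0.0298) and HOXA3 (0.0310), of which AMBP is a liver plasma protein. APOE had 46.2%, 32.8%, 11.5% and 9.46% of its CPM in the 4 libraries, and PAQR4 (0.00947) and KRT18 (0.0150) were closest, which were looked up after the values of APOE were seen. With 4 libraries this likeness is a description.

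The other genes of the pathway were mostly within 2-fold between RA and CTR GFP-negative cells. Of 22 genes of lipoprotein assembly and secretion, 13 had at least 10 CPM and all 13 were within 2-fold, from PLIN2 (log2 difference 0.91), which coats lipid droplets, DGAT2 (0.85), which makes triglyceride, and SEC24D (0.64), a coat protein of export vesicles, to SEC24C (-0.19), GPAM (-0.26) and LPIN1 (-0.48). P4HB, the partner subunit of MTTP, was at 0.46 and was named after its value was seen. In GFP-positive cells the same list had 13 of 13 within 2-fold, with PLIN2 at 0.42, DGAT2 at -0.90, SEC24D at 0.48, SEC24C at -0.13, GPAM at 0.30 and LPIN1 at -0.53. Over all genes at that limit, 91.9% were within 2-fold in GFP-negative and 94.2% in GFP-positive cells, so that these counts were near the share of all genes.

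Of 18 other apolipoproteins, 6 had at least 10 CPM in either GFP-negative library. Of these, 1 was at least 2-fold higher with RA and 2 lower, where 4.95% of all genes were higher and 3.18% lower. APOL6, an intracellular family member, was higher with RA (12.5 against 3.41 CPM, log2 difference 1.62). SAA1 (15.8 against 64.5 CPM, -1.96) and SAA2 (5.49 against 26.6 CPM, -2.09), acute-phase proteins of high-density lipoprotein, were lower, and both are near-identical copies, so that reads shared by them were not counted. APOL6 passed the limit through RA and SAA2 through CTR GFP-negative cells alone, so that each could be called only in the direction given. CLU (0.03), APOO (0.06) and APOL2 (-0.43) were within 2-fold. In GFP-positive cells the differences were 0.28 for APOL6, -0.10 for SAA1, -0.83 for SAA2, 0.17 for CLU, 0.16 for APOO and -0.15 for APOL2. There, 3 of 3 with at least 10 CPM were within 2-fold, as were 94.2% of all genes.

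Among 13 receptors and uptake genes, 10 had at least 10 CPM in GFP-negative cells, of which 2 were higher and 1 lower (4.95% and 3.18% of all genes). AMN, a partner of cubilin in endocytosis (34.4 against 5.32 CPM, log2 difference 2.49), was among the higher ones. It passed the limit through RA GFP-negative cells alone and could be called only as higher. LRP2, the endocytic receptor megalin, was lower (149.9 against 377 CPM, -1.33). LSR (0.49) and VLDLR (-0.38) were within 2-fold. In GFP-positive cells these were 1.17 for AMN, 0.33 for LRP2, 0.49 for LSR and 0.40 for VLDLR, and the 1 gene past 2-fold among 9 with at least 10 CPM was CD36 (-1.16), named after its value was seen, where 1.67% of all genes were lower. CD36 passed the limit through CTR GFP-positive cells alone and could be called only as lower.

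Of 10 lipases and remodelling genes, 5 had at least 10 CPM in GFP-negative cells and 1 was past 2-fold: ANGPTL4, an inhibitor of lipoprotein lipase, at 17.5 against 4.26 CPM (1.81). Of all genes, 4.95% were higher and 3.18% lower. ANGPTL4 passed the limit through RA GFP-negative cells alone and could be called only as higher. LIPG (0.32), LMF1 (0.07), LCAT (-0.01) and PLTP (-0.14) were within 2-fold. In GFP-positive cells ANGPTL4 was at 1.47, LIPG at 0.97, LMF1 at 0.15, LCAT at -0.37 and PLTP at 0.52. The efflux transporters ABCA1 and ABCG1, which load cholesterol onto high-density lipoprotein, were the 2 of 6 with at least 10 CPM and differed by -0.05 and -0.94 in GFP-negative and by -0.88 and -0.36 in GFP-positive cells. All 12 genes of sterol and fatty acid synthesis were within 2-fold in both fractions, as were 91.9% and 94.2% of all genes in GFP-negative and GFP-positive cells. In GFP-negative cells 12 of 12 lay below 0, with a median of -0.35 beside 0.08 over all genes at 10 CPM, of which 42.5% lay below 0, and SCD (-0.78) and LSS (-0.71) lay lowest. In GFP-positive cells SCD was at 0.24 and LSS at -0.20, and 5 of 12 lay above 0.

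Of the 25 transcription factors that act on apolipoprotein genes, 16 had at least 10 CPM in GFP-negative cells, and 6 were at least 2-fold higher with RA and 0 lower, where 4.95% of all genes at that limit were higher and 3.18% lower. Of these 6, FOXA1, HNF4A, CDX2, CEBPA and NR1H3 (9.58 CPM in CTR) passed the limit through RA GFP-negative cells alone, so that they could be called only as higher. FOXA1, a forkhead factor of endoderm, had 491 reads in RA and 2 in CTR GFP-negative cells (log2 difference 3.82) and 72 and 0 reads in RA and CTR GFP-positive cells. HNF4A, the nuclear receptor on which hepatic and intestinal apolipoprotein expression depends, had 458 and 3 reads (3.52) and 22 and 0 reads. CDX2, an intestinal homeobox factor, had 445 and 7 reads (2.88) and 8 and 0 reads, and CEBPA, a factor of hepatocytes, had 360 and 6 reads (2.72) and 53 and 59 reads. These factors had their most reads in RA GFP-negative cells, the library in which APOA4, APOA1 and APOB were highest. NR2F2 (1.22) and NR1H3 (1.03), the latter a sterol-sensing receptor, made up the 6.

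FOXA2 (240 reads in RA GFP-negative cells, at least 14.6-fold higher) and the bile acid receptor NR1H4 (241 reads, at least 14.7-fold) had no read in CTR GFP-negative cells and were named after their values were seen, as was NPC1L1, the intestinal cholesterol importer (197 reads, at least 12.0-fold). None of these reached 10 CPM. The other 10 factors were within 2-fold: GATA6 (0.77), PPARA (0.35), RXRA (0.22), SREBF1 (0.02), GATA4 (-0.15), CEBPB (-0.16), SREBF2 (-0.22), PROX1 (-0.40), PPARGC1A (-0.66) and NR2F1 (-0.74). In GFP-positive cells 12 factors had at least 10 CPM, 2 were at least 2-fold higher with RA and 0 lower, beside 4.14% and 1.67% of all genes. They were NR2F2 (534 against 27.0 CPM, 4.26) and NR2F1 (53.8 against 23.4 CPM, 1.17), orphan receptors that bind the same sequences as HNF4A.

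**Figure D4:**
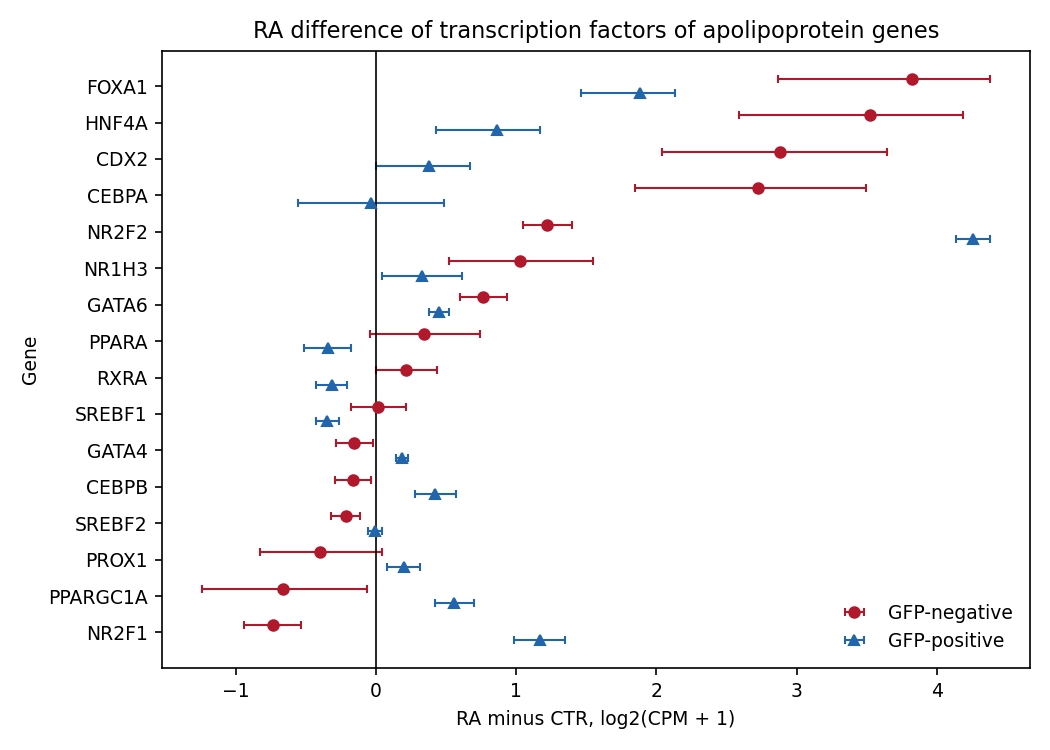
RA minus CTR difference in log2(CPM + 1) of transcription factors of apolipoprotein genes with at least 10 CPM in any library, in GFP-negative and GFP-positive cells, with a line at 0 and bars between the extremes that the Poisson 95% intervals of both libraries allow, which are wider than the exact intervals of the ratio. FOXA1, HNF4A, CDX2 and CEBPA lie highest in GFP-negative cells (2.72 to 3.82), and NR2F2 lies highest in GFP-positive cells (4.26).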

How the data were processed

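RNA sequencing libraries of 4 sorted populations were analysed. The authors made strand-specific paired libraries, aligned the reads to a custom hg19 genome with GSNAP, processed them with SAMtools 0.1.18 and counted uniquely aligned reads per Ensembl gene with HTSeq 0.6.1p1, ignoring strand. The deposited values are these raw counts. The Ensembl release is not given in the sources used here.

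Counts were scaled with TMM factors (edgeR 4.0.16, R 4.3.3) of 0.979, 1.07, 0.951 and 1.00 for RA GFP-negative, CTR GFP-negative, RA GFP-positive and CTR GFP-positive cells. Names, exon lengths and coordinates came from the GENCODE annotation lifted to GRCh37. Differences used a pseudocount of 1 CPM, and calls needed 2-fold and 10 CPM in either library. For fold bounds a library at 0 was set to a floor of 3 reads, while the calls took it at 0 CPM plus the pseudocount. The 4 libraries were each 1 replicate, and no model was fitted. Steps were tested on simulated data.

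The members, gene lists and alternatives were chosen with earlier results of these data known. Named were all members, and of each list the 3 genes with the largest rise and fall at 10 CPM or more in GFP-negative cells (for transcription factors all at 10 CPM), besides the 5 genes most like APOA4 and APOB. GPIHBP1 and ACACA were not analysed here, and some further listed genes and a promoter motif are not reported here. Alternatives were other scalings (library size, DESeq2 1.42.0 size factors and others), pseudocounts, filters and thinning of reads.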

Additional observations from a re-analysis of the deposited data

Results flagged for a closer look

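None of the 10 members differed in direction between the sorted fractions by intervals that excluded equal CPM in both. Among the 44 other list genes named by rule, 12 did, with a log2 difference between RA and CTR on one side of 0 in GFP-negative cells and on the other side in GFP-positive cells. With 1 library for each condition, this difference in direction was not tested. Over the 12407 genes with at least 10 CPM in any library, 14.2% met the same criterion. Scaling by library size alone, tried after the values were seen, shifted the differences in GFP-negative cells by -0.13, as much as the smallest of them, and 10 of the 12 then still met it, all but PPARA and RXRA.

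Higher with RA in GFP-negative and lower in GFP-positive cells were the triglyceride-forming enzyme DGAT2 (0.85 and -0.90), the fatty acid receptor PPARA (0.35 and -0.34) and its partner RXRA (0.22 and -0.31). Lower in GFP-negative and higher in GFP-positive cells were the receptors LRP2 (-1.33 and 0.33) and VLDLR (-0.38 and 0.40), the phospholipid transfer protein PLTP (-0.14 and 0.52) and the desaturase SCD (-0.78 and 0.24). The transcription factors CEBPB (-0.16 and 0.42), PPARGC1A (-0.66 and 0.56), GATA4 (-0.15 and 0.19), PROX1 (-0.40 and 0.20) and NR2F1 (-0.74 and 1.17) went the same way.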

How the results depend on the processing

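The labels give no replicate numbers that pair libraries, and a model of treatment with the fraction as a block was not fitted. With 1 library per condition no replicate could be left out. Of 320 recomputed values (40 member differences under 8 settings), 277 moved by less than their counting interval and 43 moved further, 15 of them with a pseudocount of 0.25 and 17 with 5. No call turned round. In 5 values the sign changed, all with intervals that included equal CPM. The pseudocount moved the median member difference in GFP-negative cells from 2.42 to 3.81 (0.25) or 1.03 (5), and that between the fractions of RA cells from -2.17 to -2.73 (0.25) or -1.19 (5). A limit of 1 CPM, like no limit at all, brought the members called at least 2-fold higher with RA from 3 to 8 in GFP-negative and from 0 to 2 in GFP-positive cells. Of all genes at 1 CPM, 8.69% and 5.09% were. The same limit brought those called lower in GFP-positive cells from 5 to 8 in RA, and those called higher there from 0 to 2 in CTR, beside 14.1% of all genes in each. The cause was in the limit itself, since members under 10 CPM were left out by it. With a library at 0 set to 3 reads, APOH in GFP-negative cells and APOM between the CTR fractions fall short of 2-fold. CTR GFP-negative cells, at 4371101 reads, limit what could be detected.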
